A study of Mus musculus with 8 samples.

Results

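Interferon-stimulated genes were examined in livers of mice that lacked Sco1 in hepatocytes. The list held 44 genes in 2 classes: 31 antiviral genes of the type I interferon response, and 13 genes known mainly as targets of gamma-interferon, among them GTPases and antigen processing genes. A gene counted as measured where a probe set named that gene alone, and where several did, the one with the highest mean of the 8 arrays was used. By this rule 39 of the 44 were measured (28 type I and 11 gamma), out of 22180 genes in all. Oas1a, Dtx3l, Gbp2 and Ifi47 were named only in probe sets that carry several gene symbols, and no probe set carried the symbol Ifi44, so these 5 have no value here.

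The study compared liver RNA of 4 knockout and 4 wild-type mice by 1 Affymetrix whole-transcript array per mouse. Sco1 encodes a mitochondrial copper chaperone that cytochrome c oxidase needs for its assembly. All mice were C57BL/6N and 27 days old. Knockout mice carried 1 copy of an Albumin-Cre transgene, whose promoter is active in hepatocytes, and 2 floxed Sco1 alleles. The deletion is thus aimed at hepatocytes, and whether other liver cells keep the gene was not tested. The genotype labels split the wild-type group: mice 1 and 3 carried the Cre transgene beside a floxed and a wild-type allele, whereas mice 2 and 4 carried 2 floxed alleles without Cre. The titles, by contrast, give all 4 the floxed genotype. Sex, litter, slide and scan date are not given in the sources used here, so p-values measure the spread between these mice.

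Values are log2 expression values that the authors made by RMA, and a difference is knockout minus wild-type on that scale, with its standard error. A gene was called at an adjusted p under 0.05 (limma, Benjamini-Hochberg over all 22180 genes). Array medians lay between 5.79 and 5.89. Sco1 stood at 7.48, 7.62, 7.72 and 7.56 in knockout mice 1 to 4 and at 7.84, 7.93, 8.19 and 8.04 in wild-type mice 1 to 4. The groups did not overlap, but the difference of -0.41 ± 0.09 missed the threshold (limma, adjusted p = 0.0633); which exons the probes read is not known. An exact two-sided permutation test of Sco1 alone returned p = 0.0286, the lowest possible with 4 mice in each group. Hepatocyte markers had array means of 13.12 to 13.20 in the knockout and 13.16 to 13.19 in the wild-type group (11 of 12 listed markers measured), with Alb at 13.85 and 13.84. The highest value on any array was 13.88, and whether levels so close to it could show a change was not tested. Y-linked genes averaged 7.36 in knockout mouse 4 and 8.60 to 8.86 on the other 7 arrays.

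Type I interferons signal through a transcription factor complex that includes STAT2 and IRF9 and binds the interferon-stimulated response element, whereas targets of gamma-interferon often carry the gamma-activated site. Among the genes they turn on are sensors of foreign nucleic acid, enzymes that block viral replication, GTPases that attack vacuoles of intracellular pathogens, and feedback regulators. Irf7 is itself induced by interferon and amplifies the response, while Usp18 dampens it at the receptor. In liver, hepatocytes, macrophages and endothelial cells can all respond to interferon.

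Promoter sequence is shown for the called members for which RefSeq promoter windows (GRCm38.p6) were given, and for 2 uncalled members, Isg15 and Ifit1, that were picked because they hold the response element and show what it looks like. Other uncalled members, such as Cmpk2, Irf9 and Oasl1, held no match, so these lines do not set called against uncalled members. Each line gives the 250 bases before the transcript start that the table uses, 5′ to 3′ on the gene's own strand. Capitals mark matches to the response element core GAAANNGAAA on either strand, overlapping matches merged. The windows are chr3:142559794-142560043 on the plus strand for Gbp3, chr7:141266425-141266674 on the minus strand for Irf7 and chr5:114896684-114896933 on the plus strand for Oasl2. Those of the uncalled genes are chr4:156200819-156201068 on the minus strand for Isg15 and chr19:34640639-34640888 on the plus strand for Ifit1.
Gbp3: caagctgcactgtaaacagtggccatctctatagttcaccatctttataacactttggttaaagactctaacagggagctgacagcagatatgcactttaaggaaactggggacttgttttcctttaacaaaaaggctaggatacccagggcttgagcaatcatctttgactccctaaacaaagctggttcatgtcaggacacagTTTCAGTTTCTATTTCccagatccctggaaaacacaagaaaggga
Irf7: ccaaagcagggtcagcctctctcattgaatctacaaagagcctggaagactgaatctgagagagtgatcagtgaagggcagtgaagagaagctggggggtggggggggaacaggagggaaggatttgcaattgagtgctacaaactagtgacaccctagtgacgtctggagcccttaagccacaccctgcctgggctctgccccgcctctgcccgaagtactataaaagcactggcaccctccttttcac
Oasl2: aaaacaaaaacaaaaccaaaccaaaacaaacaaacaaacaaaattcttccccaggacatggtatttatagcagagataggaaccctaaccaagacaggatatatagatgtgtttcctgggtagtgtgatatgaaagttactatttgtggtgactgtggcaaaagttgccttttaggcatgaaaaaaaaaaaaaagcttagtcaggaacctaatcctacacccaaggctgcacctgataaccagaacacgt
Isg15: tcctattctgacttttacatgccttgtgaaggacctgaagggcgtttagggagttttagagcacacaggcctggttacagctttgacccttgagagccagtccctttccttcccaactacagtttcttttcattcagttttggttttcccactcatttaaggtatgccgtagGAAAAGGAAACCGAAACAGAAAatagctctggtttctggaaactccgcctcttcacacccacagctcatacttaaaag
Ifit1: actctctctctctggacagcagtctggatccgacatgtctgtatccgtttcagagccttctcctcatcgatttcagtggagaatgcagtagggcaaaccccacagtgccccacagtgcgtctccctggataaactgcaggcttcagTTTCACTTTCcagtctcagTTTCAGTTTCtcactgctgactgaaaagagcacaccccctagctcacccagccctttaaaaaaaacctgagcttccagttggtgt

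RefSeq gave 2 windows for Gbp3. The one shown held 2 overlapping matches, which ran from 45 to 30 bases before the start, and the other held 0. Isg15 held 3 overlapping matches from 78 to 57 bases before its start, and Ifit1 held 2 separate ones between 104 and 76 bases before its start. The windows of Irf7 and Oasl2 held none. The starts used for Irf7, Oasl2 and Gbp3 lay inside the gene spans given below, so part of each window is sequence within the gene. Usp18, the remaining called member, is named only. The search also covered the gamma-activated site TTCNNNGAA, which is its own reverse complement, over windows of 250 bases before to 50 bases after the start.

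Of the 28 measured members with a window, 15 (53.57%) held the response element core in at least 1 window, against 3.993% of the 27025 genes in the table. The gamma-activated site was found in 8 of the 28 (28.57%) and in 9.554% of all genes. Both classes held the response element core at like shares, 10 of 19 type I windows and 5 of 9 gamma windows. The gamma-activated site was present in 4 of the 19 and 4 of the 9. A match is a run of letters in a short window and shows neither binding nor activity.

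In the knockout livers 4 of the 39 measured members rose and none fell. Those that rose were Irf7, Usp18 and Oasl2 of the type I class and Gbp3 of the gamma class, by 0.42 to 0.89 log2 units. These are bulk livers, in which a change in the number of cells of a type and a change in RNA per cell cannot be told apart. Over all genes 0.433% were called higher (96 genes) and 0.717% lower (159 genes). At an unadjusted p under 0.05, 8 members were higher and 3 lower, where 8.61% and 8.06% of all genes were. Groups did not overlap for 7 members with the knockout higher, against a background of 5.26%, and for 2 with the knockout lower, against 5.49%. The median difference was 0.06 over the members and 0.03 over all genes. Of the members, 24 lay above 0 and 15 below, where 12676 of the 22180 genes lay above 0 and 9504 below. Without knockout mouse 4, whose Y-linked level stood apart, 2 members were called, Irf7 and Usp18.

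**Figure D1:**
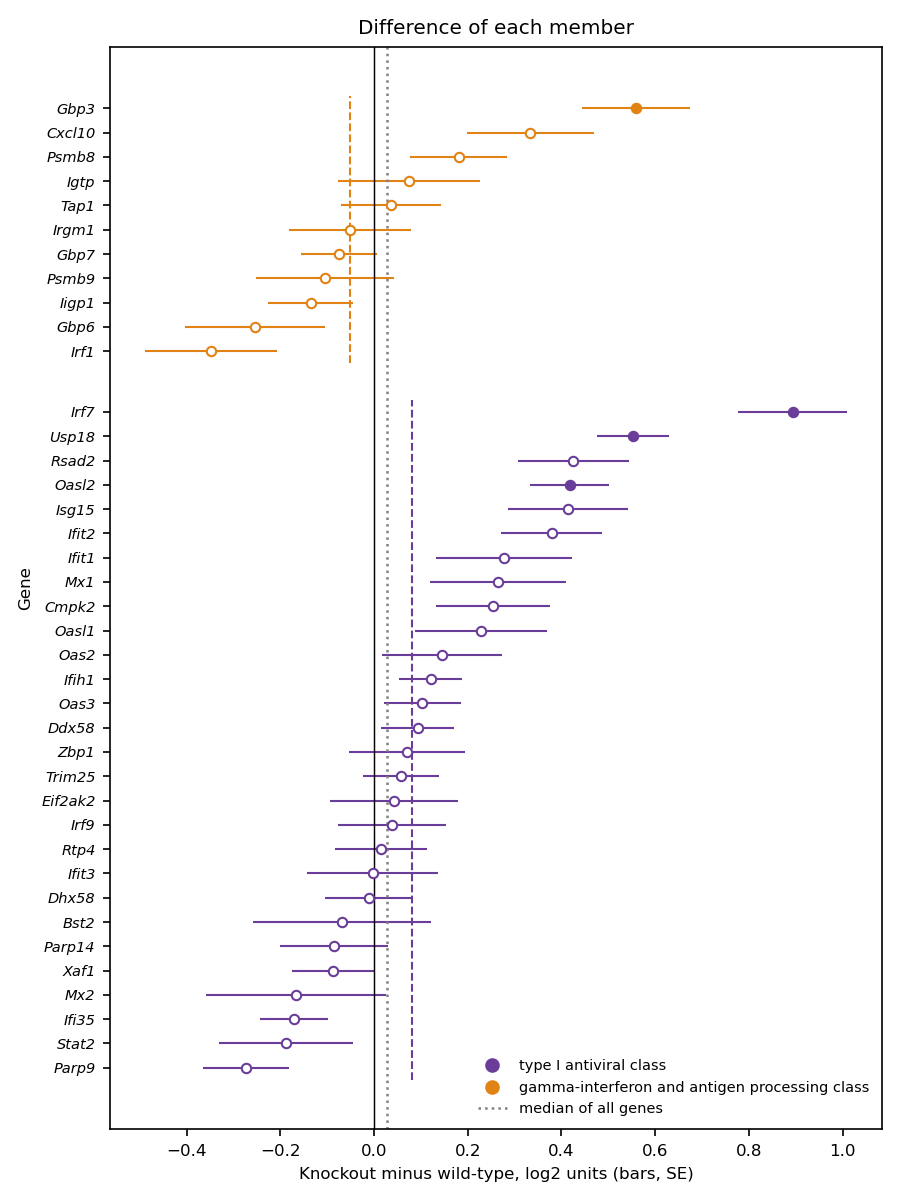
Difference (knockout minus wild-type, log2 units, horizontal axis) of each of the 39 measured members, with bars for the standard error. Filled points are called at an adjusted p under 0.05, the dashed line is the median of the class and the dotted line that of all genes. Irf7 stands at 0.89 and Irf1 at the other end at -0.35.

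The regulators of the interferon response held 2 of the 4 called members. Irf7, the transcription factor that drives interferon genes and amplifies the response (chr7:141263183-141266499, GRCm38.p6), measured 10.46, 10.21, 10.61 and 10.42 in knockout mice 1 to 4. In wild-type mice 1 to 4 it measured 9.69, 9.52, 9.25 and 9.66. The lowest knockout value lay above the highest wild-type value, and the groups were well apart. Irf7 rose by 0.89 ± 0.12, from 9.53 ± 0.20 to 10.42 ± 0.17 (SD, n = 4 each), a 1.86-fold change (limma, adjusted p = 0.00619). It ranked 21 among all 22180 genes ordered from the highest to the lowest difference.

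Usp18, the protease that removes ISG15 from proteins and blocks signalling at the type I receptor (chr6:121245906-121270917), measured 11.01, 10.96, 11.00 and 10.97 in the knockout mice. Wild-type mice 1 to 4 gave 10.46, 10.29, 10.42 and 10.56. The knockout values were almost level among themselves and all lay above the wild-type values. Usp18 rose by 0.55 ± 0.08, a 1.47-fold change (limma, adjusted p = 0.00902). Irf7 and Usp18 were called with each of the 8 arrays left out in turn, at adjusted p of at most 0.025 and 0.0341, respectively. Both calls were lost against either class of control alone, in fits of 6 arrays, at adjusted p of 0.0643 and 0.0693 for Irf7 and 0.116 and 0.0998 for Usp18 (limma, Cre-free controls first). Usp18 was also lost with all probe sets tested (limma, adjusted p = 0.0506) and without both mouse 1 arrays.

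The other 2 regulators, both parts of the complex that binds the response element, were not called. Stat2 measured 9.18, 9.64, 9.50 and 9.80 in knockout mice and 9.47, 9.66, 9.73 and 10.002 in wild-type mice, a difference of -0.19 ± 0.14 (limma, adjusted p = 0.536). Irf9 measured 9.38, 9.64, 9.51 and 9.52 against 9.21, 9.38, 9.54 and 9.76, a difference of 0.04 ± 0.12 (limma, adjusted p = 0.899). Knockout and wild-type values overlapped for both.

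**Figure D2:**
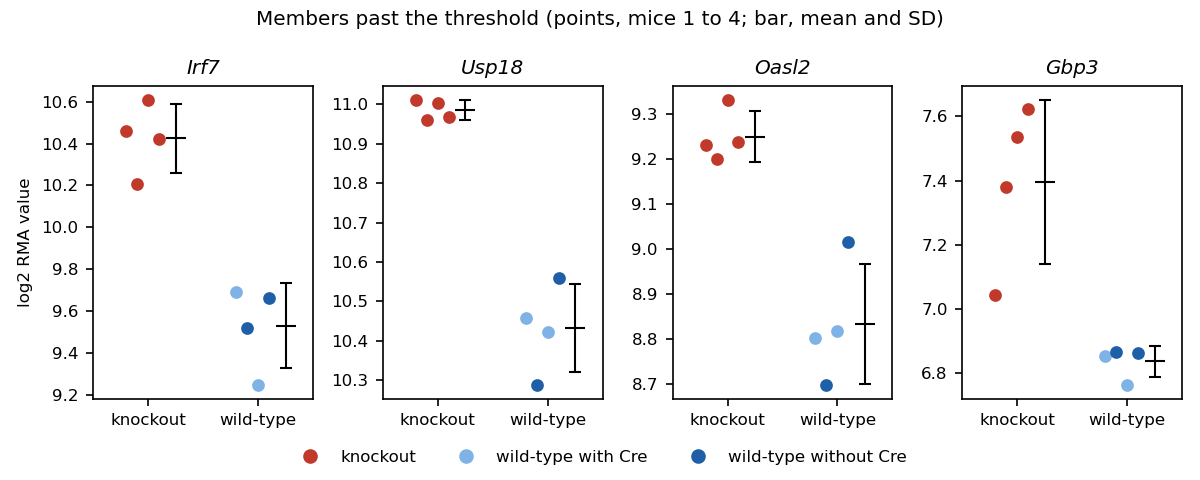
Log2 expression (vertical axis) of the called members Irf7, Usp18, Oasl2 and Gbp3 on each of the 8 arrays, with each group's mean and SD. All 4 knockout values lie above all 4 wild-type values for each gene. For Gbp3 the lowest knockout value is 7.04 and the highest wild-type value 6.86.

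None of the 5 sensors was called, and their differences lay between -0.01 and 0.12 (limma, adjusted p 0.396 to 0.963). Ifih1, the MDA5 sensor of long double-stranded RNA, measured 10.16, 10.20, 10.25 and 10.21 in knockout mice and 10.09, 10.03, 10.11 and 10.11 in wild-type mice. The groups were apart by a small margin, and the difference was 0.12 ± 0.07. Ddx58, which encodes the RIG-I sensor of short RNA with a 5′ triphosphate, differed by 0.09 ± 0.08, and Dhx58, the related regulator LGP2, by -0.01. Zbp1, a sensor of Z-form nucleic acid, differed by 0.07, and Eif2ak2, the kinase PKR that stops translation on sensing double-stranded RNA, by 0.04.

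Of the 19 antiviral effectors 1 was called, 12 lay above 0 and 7 below. Oasl2, a member of the oligoadenylate synthetase family (chr5:114896926-114912245), measured 9.23, 9.20, 9.33 and 9.24 in the knockout mice. Its wild-type values were 8.80, 8.70, 8.82 and 9.02. All knockout arrays lay above all wild-type arrays, wild-type mouse 4 coming closest. Oasl2 rose by 0.42 ± 0.08, a 1.34-fold change (limma, adjusted p = 0.0436). That call held with 1 of the 8 arrays left out, wild-type mouse 4, and was lost with each of the others, at adjusted p of up to 0.118.

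Its relatives were not called. Oasl1, which restrains translation of Irf7 messenger RNA, measured 9.04, 9.24, 9.16 and 8.96 in knockout mice and 8.53, 8.72, 8.99 and 9.25 in wild-type mice, a difference of 0.23 ± 0.14 (limma, adjusted p = 0.443). Oas2 differed by 0.14 ± 0.13 and Oas3 by 0.10 ± 0.08. The wild-type mice spanned a wider range than the knockout mice for Oasl1, with wild-type mouse 4 above every knockout value.

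Rsad2, or viperin, which makes a chain-terminating nucleotide against viral RNA synthesis, measured 9.70, 9.66, 9.58 and 9.89 in knockout mice and 8.98, 9.26, 9.37 and 9.53 in wild-type mice. The groups did not overlap, and the difference of 0.43 ± 0.12 was not called (limma, adjusted p = 0.111). Ifit2, of the family that binds viral RNA, measured 6.49, 6.25, 6.33 and 6.62 against 5.82, 6.05, 6.21 and 6.10. These groups were also apart, with a difference of 0.38 ± 0.11 (limma, adjusted p = 0.121). Isg15, the ubiquitin-like protein that USP18 removes, measured 6.40, 6.59, 6.79 and 6.96 against 6.09, 6.41, 6.15 and 6.43. Knockout mouse 1 fell within the wild-type range there, and the difference was 0.41 ± 0.13 (limma, adjusted p = 0.149).

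Cmpk2, the mitochondrial nucleotide kinase gene next to Rsad2 in the genome, measured 9.67, 9.56, 9.52 and 9.79 in knockout mice and 9.04, 9.43, 9.40 and 9.66 in wild-type mice. Ifit1 measured 9.44, 9.33, 9.42 and 9.47 against 8.71, 9.01, 9.47 and 9.36. In both genes wild-type mouse 1 was the lowest array. For Cmpk2 wild-type mouse 4 lay within the knockout range, and for Ifit1 wild-type mice 3 and 4 reached it, while wild-type mouse 2 lay below all knockout mice in both. Their differences were 0.25 ± 0.12 and 0.28 ± 0.14 (limma, adjusted p = 0.327 and 0.364). Ifit3 measured 7.34, 7.36, 6.85 and 7.02 against 6.98, 6.97, 7.18 and 7.45, with no shift between the group means.

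The Mx GTPase genes showed no common direction, and Mx1 lay below the array medians on every array. Mx1 measured 5.22, 5.27, 4.65 and 5.24 in knockout mice and 4.57, 4.87, 4.97 and 4.92 in wild-type mice, a difference of 0.26 ± 0.14 (limma, adjusted p = 0.385). Mx2 measured 6.58, 6.68, 6.48 and 6.48 against 6.08, 6.71, 6.87 and 7.23, a difference of -0.17 ± 0.19 (limma, adjusted p = 0.693). For Mx2 the wild-type range of 1.15 log2 units enclosed every knockout value.

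A few effectors were lower in the knockout group without being called. Parp9, an ADP-ribosyltransferase family member, measured 8.49, 8.77, 8.71 and 8.81 in knockout mice and 8.84, 8.91, 9.07 and 9.04 in wild-type mice. The groups were apart, and the difference was -0.27 ± 0.09 (limma, adjusted p = 0.181). Ifi35 measured 9.36, 9.52, 9.38 and 9.48 against 9.56, 9.60, 9.63 and 9.63, also apart, with a difference of -0.17 ± 0.07 (limma, adjusted p = 0.265). Ifi35 had 2 probe sets, of which the brighter is shown, and its difference lay between -0.20 and -0.09 over the alternative fits. Bst2, or tetherin, which holds budding virus at the cell surface, measured 9.20 in knockout mouse 1, 10.20, 9.81 and 10.21 in the other knockout mice, and 9.78, 9.98, 9.999 and 9.93 in wild-type mice.

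Knockout mouse 1 was the lowest array for Bst2, and the group means differed by -0.07 ± 0.19. The ubiquitin ligase gene Trim25, which acts with RIG-I, differed by 0.06, Xaf1 by -0.09, Parp14 by -0.09 and Rtp4 by 0.01. None of these was called (limma, adjusted p 0.648 to 0.957).

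**Figure D3:**
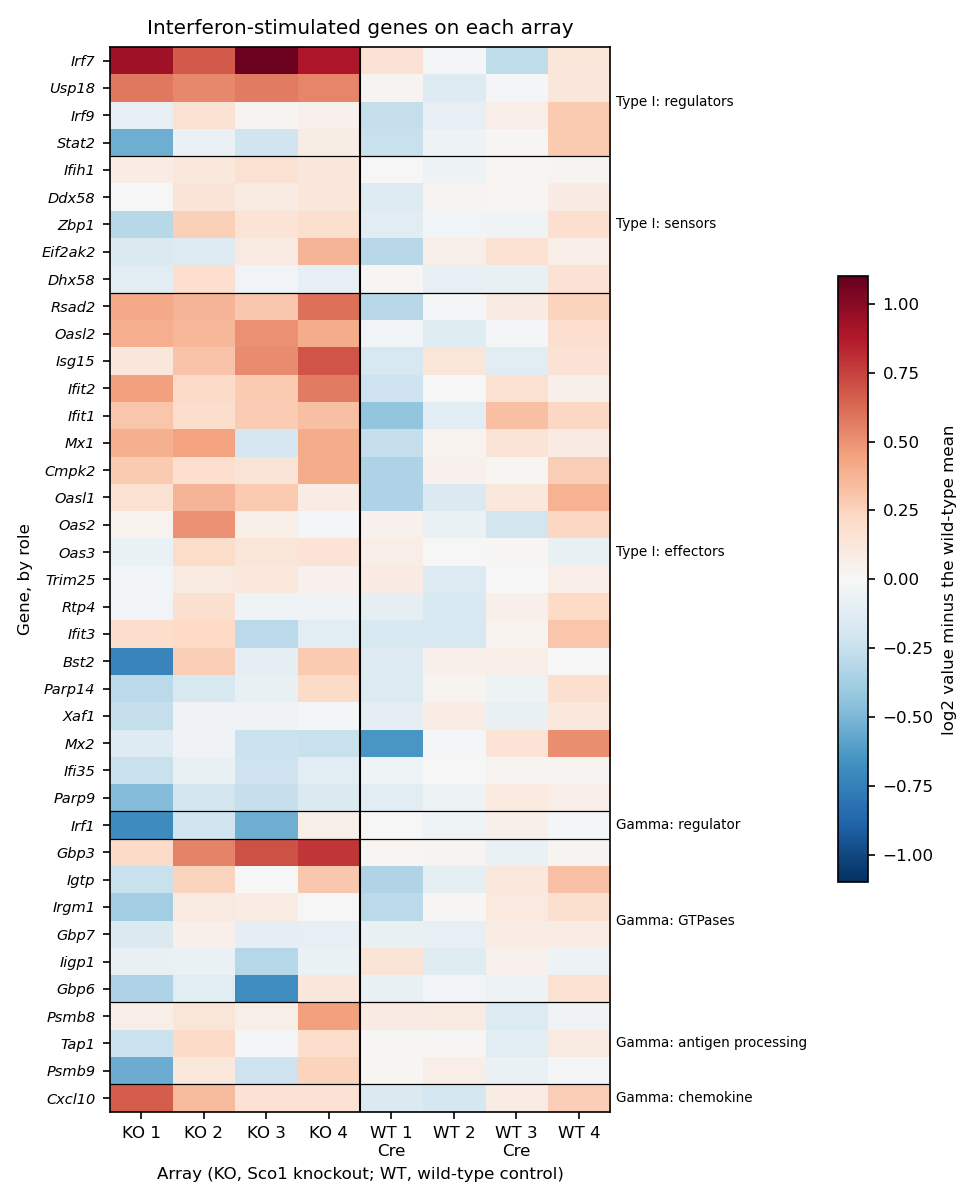
Level of each measured member on each array, drawn as the log2 value minus that gene's wild-type mean (colour scale), with genes in rows by role and arrays in columns by group. Irf7, Usp18, Oasl2 and Gbp3 differ between the groups throughout, while 18 of 28 type I members have their lowest control value in wild-type mouse 1.

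Among the 11 measured gamma members 1 rose, 5 lay above 0 and 6 below, and the median difference was -0.05. The type I class had 19 above 0 and 9 below and a median of 0.08. Gbp3, a guanylate-binding GTPase that acts on vacuoles of intracellular pathogens (chr3:142560016-142573213), measured 7.04, 7.38, 7.54 and 7.62 in the knockout mice. Wild-type mice 1 to 4 measured 6.85, 6.86, 6.76 and 6.86. The wild-type values lay close together, and the knockout values were spread but all higher, knockout mouse 1 being nearest.

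Gbp3 rose by 0.56 ± 0.12, a 1.47-fold change (limma, adjusted p = 0.0483). Its call held with knockout mouse 1 left out (limma, adjusted p = 0.0148) and was lost with each of the other 7 arrays left out, at adjusted p of up to 0.129. The 5 other GTPases were not called. Gbp6 measured 4.54, 4.77, 4.20 and 5.01 in knockout mice and 4.80, 4.85, 4.83 and 5.06 in wild-type mice, a difference of -0.25 ± 0.15 (limma, adjusted p = 0.416). All Gbp6 values lay below the array medians. Gbp7 differed by -0.07. Guanylate-binding protein genes form a family of close copies, so a probe set of 1 gene could also detect transcripts of its neighbours.

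The immunity-related GTPases, which also act on vacuoles of intracellular pathogens, were not called. Iigp1 measured 11.52, 11.52, 11.28 and 11.52 against 11.74, 11.46, 11.64 and 11.54, a difference of -0.14 ± 0.09 (limma, adjusted p = 0.479). Igtp differed by 0.07 and Irgm1 by -0.05.

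Of the remaining gamma members, Irf1, the transcription factor at the head of the gamma-interferon response, had the lowest difference of all 39. It measured 7.87, 8.35, 8.03 and 8.63 in knockout mice and 8.57, 8.52, 8.62 and 8.55 in wild-type mice, a difference of -0.35 ± 0.14 (limma, adjusted p = 0.249). Knockout mice 1, 2 and 3 lay below the wild-type range and knockout mouse 4 just above it. Cxcl10, a chemokine that draws activated T cells, measured 8.14, 7.82, 7.64 and 7.64 against 7.31, 7.28, 7.56 and 7.75, a difference of 0.33 ± 0.14 (limma, adjusted p = 0.25). Wild-type mouse 4 overlapped the knockout group.

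None of the 3 antigen processing members was called. Psmb8, a catalytic subunit of the immunoproteasome, measured 8.07, 8.13, 8.07 and 8.45 in knockout mice and 8.09, 8.10, 7.85 and 7.96 in wild-type mice, a difference of 0.18 ± 0.10 (limma, adjusted p = 0.405). Psmb9, another such subunit, measured 7.26, 7.91, 7.57 and 8.04 against 7.83, 7.87, 7.73 and 7.78, a difference of -0.10 ± 0.15 (limma, adjusted p = 0.75). The knockout mice surrounded the narrow wild-type range for Psmb9. Tap1, a subunit of the peptide transporter into the endoplasmic reticulum, differed by 0.04.

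How the members ordered the mice within each group was also described, a pattern chosen after the values were seen. Wild-type mouse 1 was the lowest wild-type array for 21 of 39 members (53.8%), against 26.4% of all genes. Wild-type mouse 4 was the highest for 25 (64.1%), against 21.1%. In the type I class these counts were 18 and 19 of 28, and in the gamma class 3 and 6 of 11. Knockout mouse 1 was the lowest knockout array for 22 of 39 (56.4%), against 27.3% of all genes, knockout mouse 4 the highest for 18 (46.2%), against 26.9%, and knockout mouse 2 the highest for 15 (38.5%), against 22.0%. Knockout mouse 1 was lowest for 15 of 28 type I and 7 of 11 gamma members. The highest array was knockout mouse 2 for 12 and knockout mouse 4 for 11 of the 28 type I members, and knockout mouse 2 for 3 and knockout mouse 4 for 7 of the 11 gamma members.

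The wild-type range was wider than the difference between the group means for 29 of 39 members (74.4%; 84.3% of all genes). Mean levels over the type I class were 8.64, 8.80, 8.72 and 8.82 in knockout mice 1 to 4 and 8.46, 8.58, 8.64 and 8.78 in wild-type mice 1 to 4. Over the gamma class they were 8.25, 8.53, 8.33 and 8.61 against 8.35, 8.38, 8.41 and 8.50. The groups overlapped in both classes. Wild-type mouse 1 had the lowest type I mean of all 8 arrays and knockout mouse 1 the lowest gamma mean.

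Both kinds of control were then compared with the knockout group in a fit with 3 groups. Against the Cre controls (wild-type mice 1 and 3) 1 member was called, Irf7 (0.95, limma, adjusted p = 0.0486), where 0.131% of all genes were called. Against the Cre-free controls (wild-type mice 2 and 4) none was called, with 0.212% of all genes called. There the lowest adjusted p of a member was 0.0729, for Irf7 (0.83, limma). The called members differed by similar amounts from both: 0.54 and 0.56 for Usp18, 0.44 and 0.39 for Oasl2, and 0.59 and 0.53 for Gbp3. For Rsad2 they were 0.54 and 0.31.

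Median differences of the members were 0.11 against the Cre controls, with 30 of 39 above 0, and -0.01 against the Cre-free controls, with 18 above 0. Between the control classes 0 members were called by limma, and 0 had an unadjusted p under 0.05, where 0.0% and 3.03% of all genes did. Cre controls lay above Cre-free controls for 7 of the 39, with a median of -0.11 against 0.000133 for all genes. With 2 mice in each class, wild-type mouse 1 and wild-type mouse 4 fall into different classes, so their position and the genotype cannot be told apart.

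Genes that start and carry the interferon signal were read from 6 lists. Among 19 measured interferon genes, out of 21 listed, none was called, and the median difference was 0.05. The smallest p was that of the lambda interferon gene Ifnl2, at 8.52 ± 0.13 in the knockout and 8.22 ± 0.10 in the wild-type group (SD, n = 4 each), a difference of 0.30 ± 0.09 (limma, adjusted p = 0.129). Ifnl3 differed by 0.25 ± 0.10, and Ifng, the gamma-interferon gene, by 0.21 ± 0.10, neither of them called. All Ifng values lay below the array medians. Of 10 measured receptor and JAK-STAT genes, out of 11 listed, none was called, and the median was -0.03.

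Ifngr1, a chain of the gamma-interferon receptor, came closest, at 10.59 ± 0.06 against 10.25 ± 0.06 (SD, n = 4 each), a difference of 0.33 ± 0.07 (limma, adjusted p = 0.0543). The kinase gene Tyk2 differed by -0.22 ± 0.08 and Stat3 by -0.19 ± 0.08. Among 17 measured nucleic acid sensing genes, out of 21 listed, 1 rose, and the median was -0.01. Tlr9, the endosomal receptor for unmethylated CpG DNA, measured 7.25, 7.32, 7.26 and 7.28 in knockout mice and 6.95, 6.89, 6.83 and 6.79 in wild-type mice. The groups were well apart, and Tlr9 rose by 0.41 ± 0.07 (limma, adjusted p = 0.0249). That call held with knockout mouse 4 or wild-type mouse 1 left out and was lost with each of the other 6, at adjusted p of up to 0.0804.

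A list of 10 further regulators and effectors, such as the signalling inhibitors Socs1 and Socs3 and the ISG15 conjugation genes Uba7, Ube2l6 and Herc6, was measured in full. None of them was called, and the median was -0.02. Those of smallest p were Socs3, at -0.15, the ISG15-conjugating enzyme gene Ube2l6, at -0.16, and Herc6, the mouse ligase gene for ISG15, at -0.15. Of 12 measured class I antigen presentation genes, out of 15 listed, none was called, with a median of 0.01. The transporter gene Tap2 differed by -0.36 ± 0.10 and the peptide editor gene Tapbpl by -0.29 ± 0.08 (limma, adjusted p = 0.11 and 0.107), and Tapbp by -0.14. Class II genes, which professional antigen-presenting cells express, had none called among 6 measured of 7 listed. All 6 lay above 0, with a median of 0.22, where 12676 of all 22180 genes lay above 0.

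Array means of the class II list ran from 7.54 to 7.77 in the knockout and from 7.26 to 7.48 in the wild-type group. H2-Ab1 differed by 0.46 ± 0.15, H2-Eb1 by 0.25 ± 0.07 and H2-Aa by 0.27 ± 0.13 (limma, adjusted p = 0.166, 0.124 and 0.316). The groups therefore did not overlap in the mean of this list, although no gene of it was called. It was 1 of several lists whose means were looked at, and how often a list would separate the groups was not tested. Taken gene by gene, the groups were apart for 1 of the 6, H2-Eb1, where 5.26% of all genes were apart with the knockout higher.

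**Figure D4:**
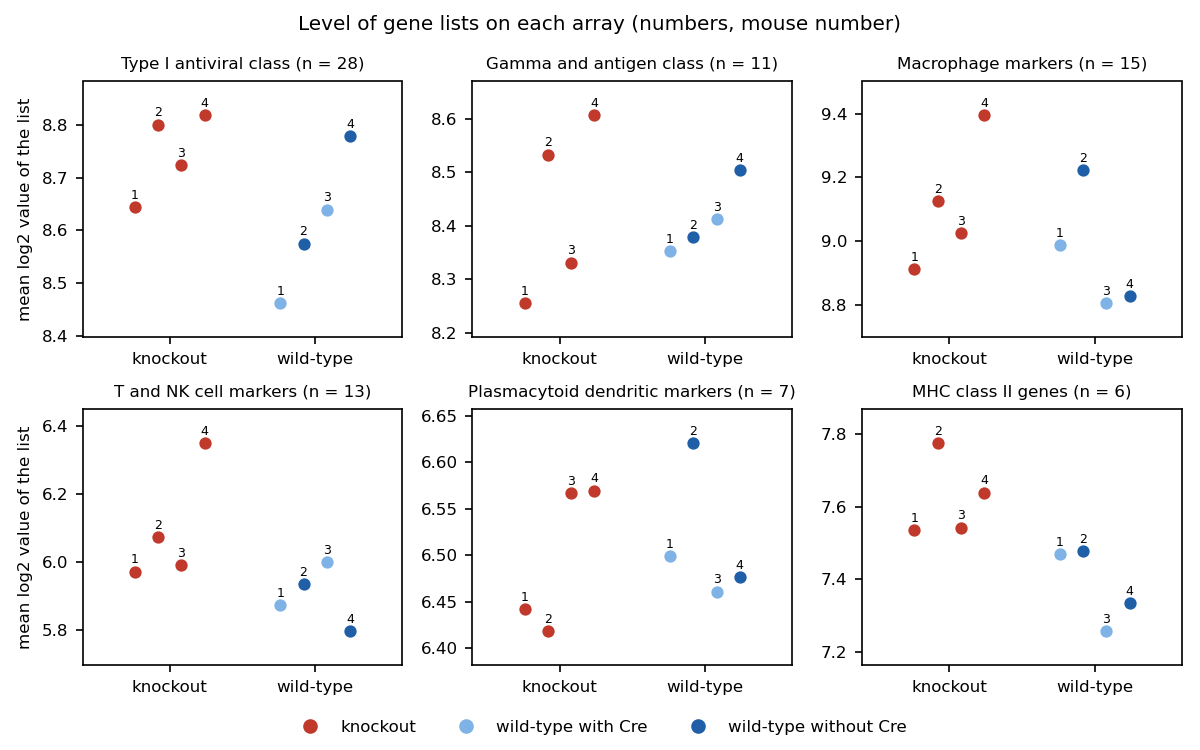
Mean log2 level (vertical axes, each with its own range) of both member classes, 3 marker lists and the class II list on each of the 8 arrays, with mouse numbers beside the points. The class II list separates the groups, at 7.54 to 7.77 in the knockout and 7.26 to 7.48 in the wild-type group, though no gene of it was called. The groups overlap in the other panels.

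No marker of any cell type list was called. Macrophage markers, all 15 measured, had array means of 8.91 to 9.39 in the knockout and 8.81 to 9.22 in the wild-type group. Of these, 14 lay above 0, Cd68 differing by 0.36 ± 0.09 and C1qc by 0.26 ± 0.09 (limma, adjusted p = 0.0921 and 0.209). T and natural killer cell markers, 13 of 13 measured, ranged over 5.97 to 6.35 against 5.80 to 6.00, with 12 above 0, Cd3e at 0.37 ± 0.12 and Nkg7 at 0.31. B cell markers, 6 of 7, ranged over 6.13 to 6.35 against 5.91 to 6.16, with Blk at 0.20 and Ms4a1 at 0.28.

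Plasmacytoid dendritic cell markers, 7 of 7 and with the member Bst2 among them, had means of 6.42 to 6.57 in the knockout and 6.46 to 6.62 in the wild-type group, with Tcf4 at 0.15 and Siglech at -0.15. Conventional dendritic cell markers, 6 of 7, ranged over 6.27 to 6.47 against 6.25 to 6.32. Of these, 5 lay above 0, with Xcr1 at 0.28 and Itgax at 0.17, and 1 lay below, at -0.23. Neutrophil markers, 9 of 9, ranged over 5.29 to 5.59 against 5.22 to 5.44. Of 10 erythroid markers 2 were measured, at 7.65 to 8.08 against 7.16 to 8.15. Sinusoidal endothelial markers, 8 of 8, ranged over 9.86 to 9.94 against 9.66 to 9.86. Their median difference was 0.06, with 7 above 0 and 1 below, and Lyve1 was the highest at 0.37. Stellate cell markers, 8 of 8, ranged over 8.97 to 9.06 against 9.02 to 9.26, and cholangiocyte markers, 5 of 6, over 6.24 to 6.39 against 6.26 to 6.35. The part of these cells in the differences of Irf7, Usp18, Oasl2 and Gbp3 was not tested.

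**Figure D5:**
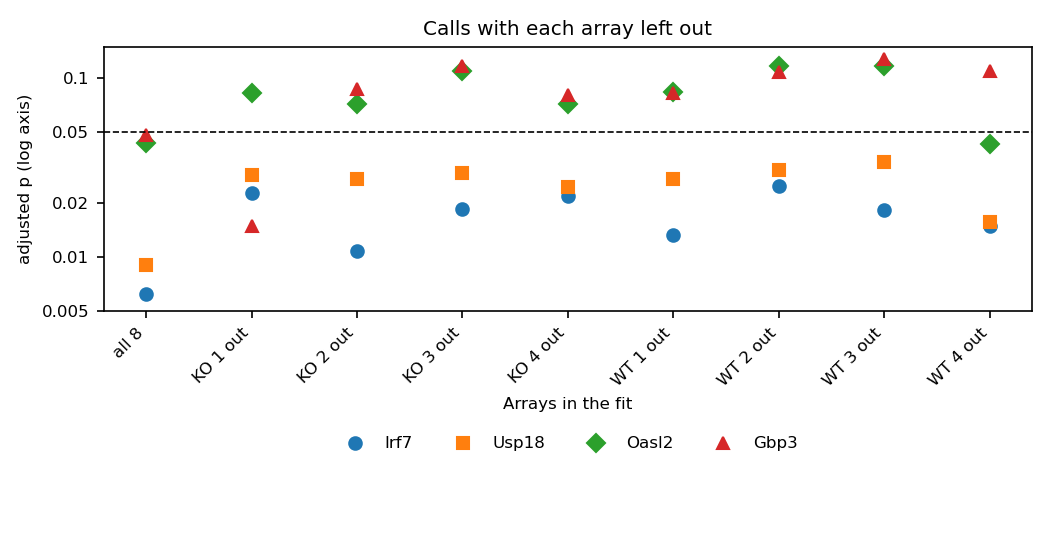
Adjusted p (limma, log axis) of Irf7, Usp18, Oasl2 and Gbp3 with all 8 arrays and with each array left out in turn (horizontal axis), with a dashed line at the threshold of 0.05. Irf7 and Usp18 are called in all 8, Oasl2 only without wild-type mouse 4 and Gbp3 only without knockout mouse 1.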

How the data were processed

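Total RNA of 8 livers was hybridised to 1 array per mouse. The deposited log2 values were made by the authors with RMA (oligo version 1.24), which per the submitters' processing notes ran in R. RMA corrects background, normalizes arrays by quantiles and summarises probes, which pulls large differences toward 0. The log2 scale was inferred from the method and the range of 1.28 to 13.88. The chip definition was not given in the sources used here.

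Of 39137 probe sets 23521 had 1 gene symbol, 1814 several and 13802 none. RefSeq (GRCm38.p6) held 23328 of those with 1 symbol, by gene number and under the same symbol. For 1082 genes with several, the set with the highest mean was kept, which left 22180 genes. Groups came from titles. Two-sided limma tests (lmFit and eBayes, version 3.58.1, R version 4.3.3) compared the groups, with Benjamini-Hochberg adjustment over all 22180 genes. A fit with 3 groups compared the classes of control. The limma step was tested on simulated data. Tables were handled in Python version 3.11.15 with pandas version 2.3.3, and plots drawn with matplotlib version 3.10.9. The number of arrays limits the precision.

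All members are described. Values on every array are given for called members and for those of smallest adjusted p in each role, and for further members picked as relatives of these after values were seen. From each pathway list called genes or up to 3 of smallest p are named, and from marker lists up to 2. Members, lists and tests were chosen with earlier results of these data known.

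The alternatives left out each array in turn, took each class of control alone, added mouse number as a block or the Y-linked level as a covariate, used array weights or a trended robust variance, centred the arrays or quantile-normalized them again, dropped genes below the median level, averaged the probe sets of a gene, and tested every probe set. Leaving out both mouse 1 arrays was added after seeing the data.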

Additional observations from a re-analysis of the deposited data

Results flagged for a closer look

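In 5 of 78 sets of 4 arrays, taken over the 39 measured members and both groups, 1 array stood far from the others by Dixon's criterion, which divides the gap to the nearest array by the range. Chance gives about 1 in 20 such sets. For Mx1, knockout mouse 3 was lowest at 4.65, with a gap of 0.914 of the range. Iigp1 was lowest in the same mouse at 11.28 (0.976 of the range). Xaf1 was lowest in knockout mouse 1 at 7.89 (0.900), and Rtp4 was highest in knockout mouse 2 at 8.996 (0.901). In the wild-type group Gbp3 was lowest in mouse 3 at 6.76 (0.896), which is a small distance from the next value of 6.85, and this gene was among those called.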

How the results depend on the processing

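The 4 members called higher became 2 with the arrays centred on their median and with the Y-linked level as a covariate (Irf7 and Usp18 both times), and 1 (Irf7) with all probe sets tested. The count was 0 against the Cre-free controls alone and 0 against the Cre controls alone, fits with 2 control arrays, and ranged from 2 to 3 with each array left out in turn. Without both mouse 1 arrays, a choice made after seeing the data, it was 2 (Gbp3 and Irf7). It stayed at 4 under array weights, the trended robust variance, renewed quantile normalization, averaged probe sets, and the filter on dim genes, which kept 35 members. That filter dropped Ifit2, Isg15, Mx1 and Gbp6. No member was called lower, and no uncalled member was called, in any of these fits. With mouse number as a replicate block the count was 2 (Irf7 and Usp18). The labels tie no numbers to a litter or day. Same-numbered mice 1 to 4 correlated at 0.273, -0.022, 0.031 and -0.102 in their deviations from group means. Knockout mouse 1 matched wild-type mouse 1 best, while the other knockout mice matched a wild-type mouse of another number best. What same-numbered mice share was not tested. Over all genes the higher share of calls was 37.6% (96 higher and 159 lower) and 20.7% (60 and 230) with centred arrays. The type I median lay between 0.05 and 0.14 and the gamma median between -0.10 and 0.06. Sco1 passed the threshold under the trended robust variance (-0.41, adjusted p = 0.0464) and the filter on dim genes (-0.41, adjusted p = 0.036), both by limma. The cause of these changes was not tested.

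Tlr9, chosen from the pathway lists, lost its call with all probe sets, the replicate block, the Y-linked covariate and each class of control alone. Differences changed sign for 14 uncalled members, whose differences in the fit of all 8 arrays were at most 0.17 in size. Against the Cre controls alone the values were 0.023 for Dhx58, 0.060 for Ifit3, 0.080 for Mx2, 0.011 for Xaf1, 0.018 for Parp14 and 0.044 for Irgm1. Against the Cre-free controls alone they were -0.060 for Irf9, -0.0075 for Zbp1, -0.030 for Eif2ak2, -0.0080 for Rtp4, -0.034 for Igtp and -0.018 for Tap1. The Y-linked covariate gave 0.019 for Dhx58, -0.073 for Eif2ak2, 0.066 for Ifit3 and -0.026 for Tap1. Renewed quantile normalization gave 0.026 for Dhx58 and 0.038 for Ifit3. Array weights gave 0.0057 for Dhx58. Centring gave -0.017 for Rtp4. With single arrays left out the ranges were -0.19 to 0.15 for Bst2, -0.077 to 0.041 for Dhx58, -0.068 to 0.11 for Eif2ak2, -0.076 to 0.10 for Ifit3, -0.036 to 0.18 for Igtp, -0.050 to 0.13 for Irf9, -0.15 to 0.059 for Irgm1, -0.38 to 0.0026 for Mx2, -0.22 to 0.042 for Psmb9, -0.042 to 0.087 for Rtp4 and -0.022 to 0.13 for Tap1.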
